A study of Mus musculus with 8 samples.

Results

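The desmosomal cadherins are the adhesion molecules of the desmosome, and all 9 mouse genes of the family (*Dsg1a*, *Dsg1b*, *Dsg1c*, *Dsg2*, *Dsg3*, *Dsg4*, *Dsc1*, *Dsc2* and *Dsc3*) were followed in the RNA-seq of the mouse incisor. They were taken by name from a table of 23358 genes, in which each of the 9 had 1 row. The tissue came from the cervical loop (CL) of incisors of C57BL/6 mice 4 weeks old, labelled as dental epithelial cells and dissected into the head (CLH), which contains the stem cells, and the tail (CLT), which contains their progeny. The Ctrl mice were *Cre*-negative littermates, labelled WT, and the *Med1* cKO mice, labelled KO, carried floxed *Med1* alleles and a *Cre* driven by the *Krt14* promoter. Both had the C57BL/6 background. That promoter is active in epithelium, so other cells of the dissected tissue keep the gene. Each of the 4 groups (Ctrl CLH, cKO CLH, Ctrl CLT and cKO CLT) had 2 libraries, from 2 litters. The sexes were not distinguished, and several CL tissues were pooled for each group of a litter.

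Desmosomes are spot-like junctions that tie the keratin filaments of one epithelial cell to those of its neighbour. Their transmembrane parts are the desmogleins (Dsg) and desmocollins (Dsc), which meet between the cells, and inside the cell they bind plakoglobin and plakophilins, which in turn bind desmoplakin and keratin. Simple epithelia rely on *Dsg2* and *Dsc2*. In skin, *Dsg3* and *Dsc3* are strongest in the lower layers, *Dsg1* and *Dsc1* in the upper, differentiating layers, and *Dsg4* in the hair shaft and the uppermost layers.

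The libraries held 22330512 to 28651106 reads on genes, and in cKO CLT the members tested had 470 to 16814 reads each. The level of *Med1*, the targeted gene, went against the labels in CLT. It was 7.71 and 9.12 RPKM (reads divided by gene length in kilobases and by library size) in Ctrl CLH, against 7.10 and 7.03 in cKO CLH. In CLT the libraries labelled cKO, with 9.15 and 8.96 RPKM, were above those labelled Ctrl, with 4.83 and 8.71. This total covers the whole gene, of which the floxed exons are only a piece, and "cKO" and "Ctrl" below mean the libraries so labelled. The 2 Ctrl CLT libraries also stood apart from each other. Of the 14148 genes tested, 34.6% differed between them by over 1.5-fold on the scale of RPKM + 1, against 0.763% to 1.12% within the other groups. Values that rest on either of them are therefore given for both.

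The label was checked against markers. The summed level of 6 ameloblast (enamel-forming cell) genes was 12498 to 14312 RPKM in the 4 CLH libraries, 83713 and 33721 in Ctrl CLT, but 17.7 and 14.7 in cKO CLT. The 6 basal epithelial genes, with *Krt5* and *Krt14* among them, summed to 586 to 706 RPKM in CLH, 1369 and 866 in Ctrl CLT and, in cKO CLT, 1638 and 1878. Epithelium was thus present in every library. The basal list was split in CLT, however. *Krt5*, *Krt14* and *Trp63* were higher in cKO than in Ctrl without overlap, and *Col17a1* overlapped. *Itga6* was lower in cKO, at 18.3 and 17.5 RPKM against 30.3 and 43.1 in Ctrl. *Itgb4* was lower too, at 12.8 and 15.0 RPKM in cKO against 34.8 and 21.6 in Ctrl. Fewer cells of a type and less RNA per cell cannot be told apart in such tissue.

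The members lie side by side on mouse chromosome 18, at chr18:19960930-20604526 of mm10, a stretch of 644 kb with no other gene of the table between them. Their order by coordinate is *Dsc3*, *Dsc2*, *Dsc1*, *Dsg1c*, *Dsg1a*, *Dsg1b*, *Dsg4*, *Dsg3* and *Dsg2*. In the GENCODE M21 annotation the desmocollins are on the minus strand and the desmogleins on the plus strand. The longest open reading frames of *Dsg1a* and *Dsg1b* were identical at 97.0% of aligned bases, and those of *Dsg1a* and *Dsg1c* at 95.9%. Those of *Dsg1b* and *Dsg1c* were identical at 95.4%. The other pairs of desmogleins shared 56.4% to 64.4%, and the pairs of desmocollins 61.4% to 66.3%. Of all 50-base windows of the longest transcript, 35.0% in *Dsg1a*, 49.0% in *Dsg1b* and 29.6% in *Dsg1c* also occurred in other genes, nearly all within this trio. How reads of such windows were assigned is not known, so the split among the 3 *Dsg1* genes is uncertain. *Dsc1*, *Dsc2*, *Dsc3* and *Dsg4* had no shared window, and *Dsg3* 0.357%. For *Dsg2*, 5.07% of windows were shared, and an antisense gene, *Gm16090*, overlaps its end. The library kit does not mark strand, so reads of that pair cannot be told apart where they overlap.

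In CLH, *Dsc3* had the highest level of any member, followed by *Dsg2*, *Dsc2* and *Dsg1a*, and no member differed between cKO and Ctrl past the test. The remaining 5 members lay under 1 RPKM. The order in cKO CLT was another. There *Dsc3*, *Dsc1*, *Dsg1a* and *Dsg4* were the highest, and *Dsg2* was below all but *Dsg1b* and *Dsg1c*. The plot of RPKM by library shows each member on its own scale.

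**Figure D1:**
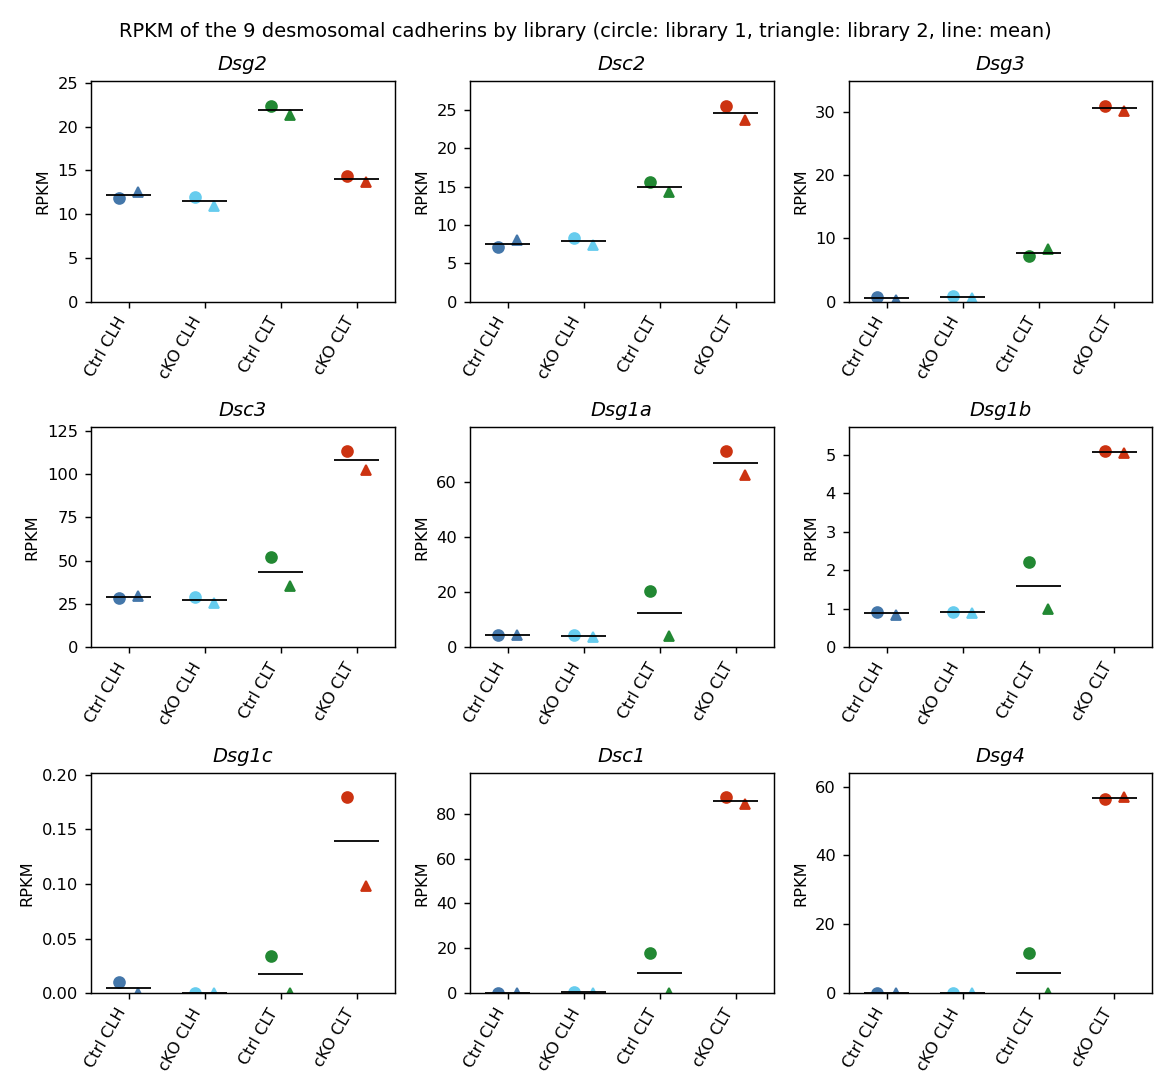
RPKM (vertical axis, linear, from 0) of each desmosomal cadherin in the 4 groups (horizontal axis), with a circle for library 1, a triangle for library 2 and a line at their mean. *Dsg2* alone was higher in Ctrl CLT than in cKO CLT, and the 2 Ctrl CLT libraries are far apart for *Dsc1*, *Dsg4* and *Dsg1a*.

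Among the broadly expressed members, *Dsg2*, the desmoglein of simple epithelia, was at 11.8 and 12.5 RPKM in Ctrl CLH, against 12.0 and 11.0 in cKO CLH. In CLT it was at 22.4 and 21.4 RPKM in Ctrl, above the 14.4 and 13.6 of cKO. Its order was thus Ctrl CLT, cKO CLT and then both CLH groups, whose ranges overlapped. *Dsc2*, its usual partner, was at 7.08 and 8.01 RPKM in Ctrl CLH, against 8.35 and 7.37 in cKO CLH. Its CLT levels were 15.5 and 14.2 RPKM in Ctrl, below the 25.6 and 23.7 of cKO. The pair therefore went the same way from CLH to Ctrl CLT and parted in cKO CLT, where *Dsc2* was above and *Dsg2* below the Ctrl CLT libraries.

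Of the members of the lower layers of stratified epithelium, *Dsg3*, an antigen in pemphigus vulgaris, was low in CLH, at 0.721 and 0.263 RPKM in Ctrl, against 0.945 and 0.486 in cKO. In CLT the 7.15 and 8.24 RPKM of Ctrl stood against 31.0 and 30.1 in cKO. No CLH library overlapped a CLT library, and the 2 Ctrl CLT libraries were close for this gene. *Dsc3*, the main desmocollin of keratinocytes, was at 28.4 and 29.7 RPKM in Ctrl CLH, against 28.8 and 25.5 in cKO CLH. In CLT it was at 51.9 and 35.4 RPKM in Ctrl, below the 113 and 103 of cKO. Its groups had the same order, with CLH lowest and cKO CLT highest.

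Of the members of the upper layers, *Dsg1a* was at 4.34 and 4.64 RPKM in Ctrl CLH, against 4.45 and 3.57 in cKO CLH. In CLT its levels were 20.4 and 4.18 RPKM in Ctrl, below 71.1 and 62.5 in cKO, and Ctrl CLT 2 lay within the CLH range. *Dsg1b* followed at a lower level, with 0.853 to 0.930 RPKM in the CLH libraries, 2.22 and 0.983 in Ctrl CLT and, in cKO CLT, 5.09 and 5.06. The third copy was hardly detected. *Dsg1c* had 15 and 8 reads in cKO CLT, 3 in Ctrl CLT 1 and 1 in Ctrl CLH 1. The other 4 libraries had 0 reads, a count that allows up to 3. It did not pass the filter of 1 RPKM in at least 2 libraries and was not tested. *Dsc1*, the desmocollin of differentiated layers, was at 0.200 and 0.0394 RPKM in Ctrl CLH, against 0.487 and 0.125 in cKO CLH. In CLT it was at 17.8 and 0.0199 RPKM in Ctrl, below the 87.5 and 84.3 of cKO. The value of Ctrl CLT 2 rested on 2 reads, against 1963 in Ctrl CLT 1.

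*Dsg4*, the desmoglein of the hair shaft, had no read in any of the 4 CLH libraries. In CLT it was at 11.7 and 0.0108 RPKM in Ctrl, below the 56.3 and 57.0 of cKO. The lower Ctrl CLT value was a single read, and the higher one 1189 reads. *Dsg4* and *Dsc1* thus shared their pattern, nearly absent from CLH and from Ctrl CLT 2, intermediate in Ctrl CLT 1 and high in cKO CLT. Their ratio, *Dsg4* to *Dsc1*, was 0.657 in Ctrl CLT 1, close to the 0.644 and 0.675 of cKO CLT.

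The make-up of the family is clearer as shares of the summed RPKM. In all 4 CLH libraries *Dsg2* made up 65.4% to 68.9% of the desmogleins and *Dsg1a* 22.4% to 25.5%. In cKO CLT *Dsg2* made up 8.06% and 8.10%, while *Dsg1a* made up 39.9% and 37.1%, *Dsg4* 31.6% and 33.8%, and *Dsg3* 17.4% and 17.9%. *Dsg2* was the leading desmoglein in both Ctrl CLT libraries, with 35.1% and 61.4%. Their second desmoglein differed, since it was *Dsg1a* with 31.9% in Ctrl CLT 1 and *Dsg3* with 23.7% in Ctrl CLT 2. *Dsg4* made up 18.3% in the first of these and 0.0311% in the other.

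Among the desmocollins, *Dsc3* led in every library, with 76.5% to 79.6% in CLH, 60.9% and 71.3% in Ctrl CLT and, in cKO CLT, 50.0% and 48.7%. *Dsc1* took 38.7% and 40.0% in cKO CLT, 20.9% and 0.0401% in Ctrl CLT, and at most 1.29% in CLH. *Dsc2* stayed between 18.2% and 28.7% in CLH and Ctrl CLT and was at 11.3% and 11.2% in cKO CLT. The summed level also differed. All 9 members together came to 48.9 to 56.0 RPKM in CLH, 149 and 84.4 in Ctrl CLT and, in cKO CLT, 404 and 379. Desmocollins exceeded desmogleins everywhere, by a ratio of 2.01 to 2.07 in CLH, 1.33 and 1.43 in Ctrl CLT and, in cKO CLT, 1.27 and 1.25. These shares and sums are descriptions, since the smallest p of an exact permutation of 2 libraries against 2 is 0.333.

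**Figure D2:**
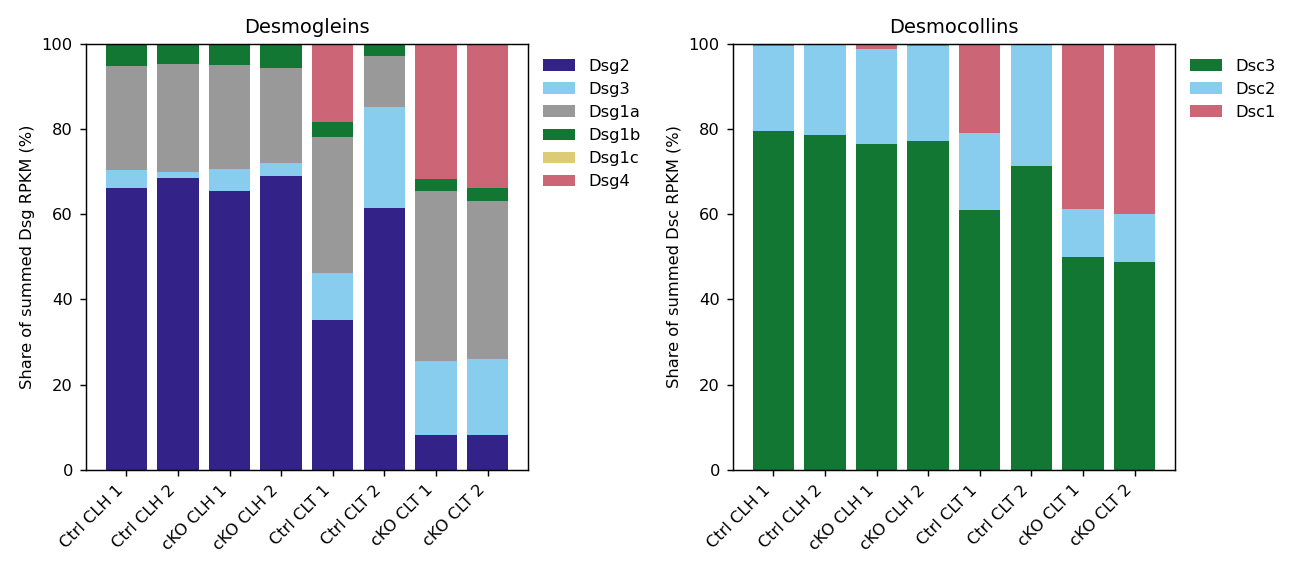
Share (%, vertical axis) of each desmoglein (left) and desmocollin (right) in the summed RPKM of its subfamily, with 1 bar for each of the 8 libraries. *Dsg2* fills 65.4% to 68.9% of the desmoglein bar in CLH and 8.06% and 8.10% in cKO CLT, and the *Dsg4* and *Dsc1* segments are visible in Ctrl CLT 1 and absent to the eye in Ctrl CLT 2.

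Pairs of members were also compared within libraries. *Dsg1a* exceeded *Dsg1b* by 3.99 to 5.44 times in CLH, 9.19 and 4.25 times in Ctrl CLT and, in cKO CLT, 14.0 and 12.3 times. As both share windows, these ratios depend on how shared reads were assigned. The ratio of *Dsg3* to *Dsg2*, which share no window, was 0.0211 to 0.0790 in CLH, 0.319 and 0.386 in Ctrl CLT and, in cKO CLT, 2.16 and 2.21. The CLT libraries of each label were close to each other in this ratio, and all 3 ranges were apart.

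The first comparison asks what the deletion of *Med1* changed in the progeny tissue. In CLT, *Dsg3* was higher in cKO, by 1.86 ± 0.15 on the log2 scale (SE, n = 2 against 2, adjusted p = 0.037, limma across all 14148 genes on log2 of RPKM + 1). It was the only member past the threshold of 0.05 in this fit. All 8 members tested kept their groups apart. 7 were higher in cKO, where 37.2% of all genes were higher without overlap, and 1, *Dsg2*, was lower, where 35.1% of all genes were. 1 of 8 was called higher and 0 lower, against 0.0777% and 1.68% of all genes, and all 8 had an unadjusted p under 0.05, against 36.2% of all genes.

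The members that missed the threshold had larger errors or smaller differences. On the log2 scale *Dsc1* differed by 4.31 ± 1.48 (SE, adjusted p = 0.13), *Dsg4* by 4.01 ± 1.29 (adjusted p = 0.12) and *Dsg1a* by 2.68 ± 0.73 (adjusted p = 0.097, limma). These are the 3 members for which the Ctrl CLT libraries were farthest apart. *Dsc3* differed by 1.31 ± 0.24 (adjusted p = 0.069), *Dsg1b* by 1.27 ± 0.30 (adjusted p = 0.083) and *Dsc2* by 0.69 ± 0.15 (adjusted p = 0.077). For *Dsg2* the log2 fold change was -0.61 ± 0.14 (adjusted p = 0.082). The median of the 8 was 1.59, beside -0.01 for all genes tested. *Dsg1b*, *Dsg3*, *Dsg4* and *Dsc1* passed the filter through CLT libraries only. This median and the counts of members given above for this comparison are therefore no support for a direction of the family.

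The calls changed with the libraries that entered. Leaving out 1 library leaves its group with 1, so the spread in these fits comes from the other pair and the lone library is assumed to vary like it. Without Ctrl CLT 1, 8 of 8 members passed, as did 69.5% of all genes, and without Ctrl CLT 2 again 8, with 52.1% of all genes. Leaving out 1 or the other cKO CLT library lost the call of *Dsg3*. Calls became far fewer over all genes as well, so this loss is not particular to the members. The log2 fold change of *Dsg3* was 1.84 without cKO CLT 1 and 1.88 without cKO CLT 2. With all 8 libraries in 1 fit, 8 members passed, with 43.7% of all genes, and the adjusted p of *Dsg3* lay between 0.0024 and 0.090 over the alternatives that kept all libraries of CLT. With single libraries left out it went from 8.42e-05 without Ctrl CLT 1 to 0.42 without cKO CLT 2.

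Markers of other tissues moved with these members. The 9 hair shaft and inner root sheath genes summed to 10.6 to 13.9 RPKM in CLH, 3834 and 14.8 in Ctrl CLT and, in cKO CLT, 11289 and 12344. Among them, *Krt85* was at 0 in both cKO CLH libraries and *Krt35* in cKO CLH 2. The 5 epidermal differentiation genes found, of 6 listed, summed to 5.61 to 19.9 RPKM in CLH, 369 and 4.02 in Ctrl CLT and, in cKO CLT, 1059 and 1058. *Krt75*, of the companion layer of the hair follicle, was at 2.01 to 2.82 RPKM in CLH, 127 and 2.84 in Ctrl CLT and, in cKO CLT, 390 and 429. The 5 skeletal muscle genes had the same pattern, with 16.0 to 20.6 RPKM in CLH, 448 and 29.0 in Ctrl CLT and, in cKO CLT, 1238 and 1428. Of the 4 genes of oral and tongue epithelium, *Krt84* went with the hair genes, at 0.0692 to 0.237 RPKM in CLH, 9.15 and 0.132 in Ctrl CLT and, in cKO CLT, 27.8 and 31.2. The other 3, *Krt4*, *Krt13* and *Krt76*, were called lower in CLT than in CLH of cKO mice. The sum of the 4 oral genes was uneven within CLH. It was 29.4 RPKM for Ctrl CLH 1 but only 0.608 for Ctrl CLH 2, while cKO CLH 1 reached 56.6 and cKO CLH 2 reached 33.3. Among the members, only *Dsg3* and *Dsc1* were likewise highest in cKO CLH 1 and lowest in Ctrl CLH 2. For both, however, Ctrl CLH 1 was above cKO CLH 2. The 5 odontoblast and bone genes went the other way from the hair genes, summing to 2075 to 3040 RPKM in CLH, 2138 and 2469 in Ctrl CLT and, in cKO CLT, 377 and 472, where *Ibsp* was at 0. Among them *Dspp*, of odontoblasts, was at 543 and 644 RPKM in Ctrl CLT, above 0.145 and 0.174 in cKO CLT. The part of these markers in the results for the members was not tested.

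The position of Ctrl CLT 1 was measured for each member, as the share of the way from Ctrl CLT 2 to the mean of cKO CLT. It was 20.7% for *Dsc1*, 20.6% for *Dsg4*, 25.9% for *Dsg1a*, 30.2% for *Dsg1b* and 22.8% for *Dsc3*. It was 12.4% for *Dsc2*, and for *Dsg3* and *Dsg2* Ctrl CLT 1 lay on the far side of Ctrl CLT 2, at -4.89% and -14.0%. By the same measure the hair genes were at 29.6% to 37.4% and the muscle genes at 29.7% to 35.8%. *Dsg3*, *Dsg2* and *Dsc2* were thus the members in which the 2 Ctrl CLT libraries differed least, although their levels of hair genes differed.

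In CLH the same comparison gave no difference past the test. The fitted log2 fold changes of the 7 members with reads ranged from -0.14 ± 0.12 for *Dsg1a* to 0.21 ± 0.15 for *Dsc1* (SE, n = 2 against 2), and the cKO and Ctrl ranges of every member tested overlapped. For *Dsg4*, at 0 in all of them, no fold was formed. 0 of 8 members passed with limma, as did 0% of all genes, and 0 members had an unadjusted p under 0.05, against 7.26% of all genes. The voom fit of the recovered reads called 0 members too. At this number of libraries a small difference was not detectable.

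Whether the deletion acted differently in CLT and CLH was examined by the interaction term of a fit to all 8 libraries. 5 of the 8 members passed. The difference of the log2 fold changes, CLT minus CLH, was 1.66 ± 0.29 for *Dsg3* (SE, adjusted p = 0.019) and 1.41 ± 0.26 for *Dsc3* (adjusted p = 0.021, limma). It was 1.25 ± 0.33 for *Dsg1b*, -0.53 ± 0.14 for *Dsg2* and 0.64 ± 0.17 for *Dsc2*, each with an adjusted p of 0.048. Only *Dsc3* passed under every alternative that kept all libraries (adjusted p = 0.020 to 0.031, limma). *Dsg3*, which was under 1 RPKM in every CLH library, missed the threshold with a pseudocount of 0.1 (adjusted p = 0.15, limma) and with voom (adjusted p = 0.13). *Dsg2*, the desmoglein of simple epithelia, was the only member with a negative difference. 4 members were called with a positive difference, against 8.05% of all genes, and 1 with a negative one, against 9.58%. Of those with a positive difference, *Dsg1b* and *Dsg3* passed the filter through CLT libraries only, so the count is no support for a direction of the family. *Dsg1a* (2.82 ± 0.84, adjusted p = 0.064), *Dsg4* (4.01 ± 1.47, adjusted p = 0.10) and *Dsc1* (4.10 ± 1.70, adjusted p = 0.13) had larger differences and missed the threshold. Leaving out Ctrl CLT 1 gave 8 calls, with 63.1% of all genes called, and leaving out Ctrl CLT 2 gave 8, with 46.6%. Leaving out any single library of the other 3 groups lost the calls of the members. Calls became far fewer over all genes as well, so this loss is not particular to the members. The difference for *Dsc3* stayed at 1.32 to 1.49 in these fits.

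The comparison of the regions asks how the family differs between stem cell tissue and progeny tissue. It shares its libraries with the comparisons above, so the values are set side by side and are not further evidence for them. In Ctrl mice, the fitted log2 fold change from CLH to CLT was 2.56 ± 0.24 for *Dsg3* (SE, adjusted p = 0.22), 0.90 ± 0.15 for *Dsc2* and 0.80 ± 0.13 for *Dsg2* (adjusted p = 0.31 for both, limma). These 3 had an unadjusted p under 0.05, as did 13.1% of all genes. 0 of 8 passed after adjustment, as did 0.00707% of all genes, and the voom fit called 0 as well. 6 members were higher in CLT without overlap, against 15.2% of all genes, and only *Dsg1a* and *Dsc1* had overlapping ranges. Among the 6, *Dsg1b*, *Dsg3* and *Dsg4* were under 1 RPKM in every CLH library and passed the filter through CLT alone. The count is therefore no support for a direction of the family. For *Dsg4* the gap was the single read of Ctrl CLT 2.

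The 2 Ctrl CLT libraries set the size of the other regional differences. For *Dsc1* the log2 fold change was 1.97 ± 1.51 with both, -0.13 without Ctrl CLT 1 and 4.07 without Ctrl CLT 2. *Dsg1a* went from 0.94 ± 0.74 to -0.08 and 1.96. *Dsg3* alone passed without Ctrl CLT 1, when 3.31% of all genes did, and all 8 passed without Ctrl CLT 2, when 53.3% did. In the fit of all 8 libraries 3 passed (*Dsg3*, *Dsc2* and *Dsg2*), with 5.92% of all genes.

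In cKO mice, all 8 members tested were called higher in CLT than in CLH, against 28.9% of all genes. 4 of them (*Dsg1b*, *Dsg3*, *Dsg4* and *Dsc1*) were under 1 RPKM in every CLH library and passed the filter through CLT alone, so the count is no support for a direction of the family. *Dsc1* and *Dsg4* led. On log2 of RPKM + 1, *Dsc1* had a fold change of 6.07 ± 0.13 (SE, n = 2 against 2) and *Dsg4* one of 5.85 ± 0.09. *Dsg4* was at 0 in CLH. In RPKM without the added 1 it was at least 2069-fold higher in CLT, taking 3 reads in each cKO CLH library as the floor. *Dsg3* followed with 4.22 ± 0.13 and *Dsg1a* with 3.76 ± 0.11. The others were *Dsc3* with 1.95 ± 0.10, *Dsg1b* with 1.67 ± 0.10 and *Dsc2* with 1.53 ± 0.10. This order depends on the added 1, which shrinks the fold of genes at low levels. With voom *Dsg1b* was at 2.50, above the 2.17 that *Dsc3* reached at most over the alternatives. *Dsg2* had the smallest, 0.27 ± 0.09 (adjusted p = 0.029, limma), and lost the call in the fit of all 8 libraries (adjusted p = 0.059). It also lost it without cKO CLH 2 (adjusted p = 0.15), cKO CLT 1 (0.16) or cKO CLT 2 (0.092), and its lowest adjusted p was 0.0018, with median-of-ratios scaling.

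**Figure D3:**
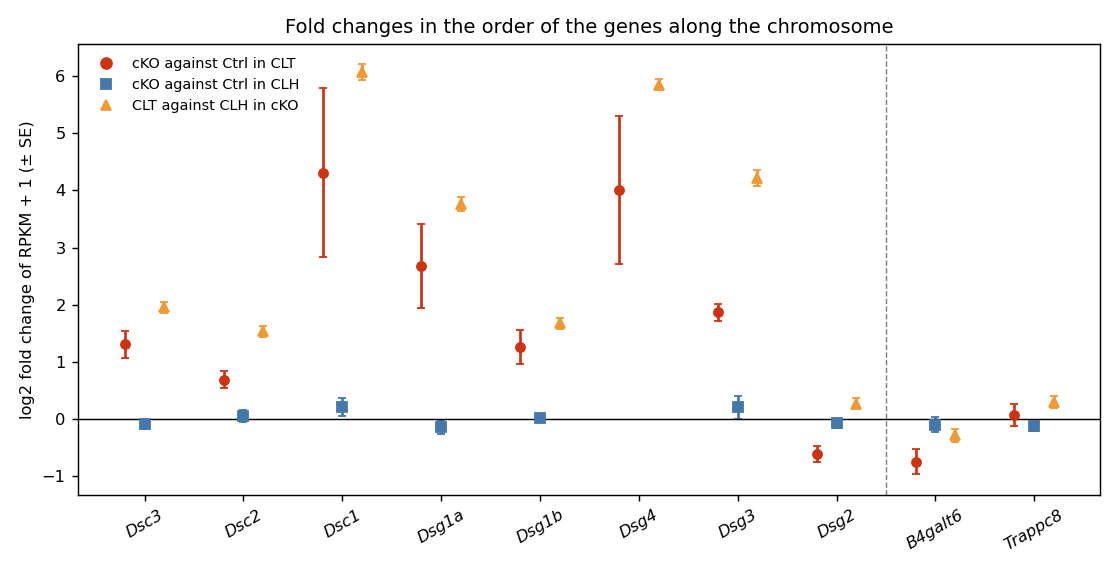
Fitted log2 fold change of RPKM + 1 (vertical axis, points, with bars for ± SE) for the 8 members tested, in their order along the chromosome, and for the 2 nearest genes tested on one side (right of the dashed line). *Dsc1* and *Dsg4* have the highest points and the end members *Dsc3*, *Dsc2* and *Dsg2* lower ones, and *Dsg4* has no point for CLH, where it had no reads.

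Along the chromosome, the members with the largest fold changes lay inside the cluster and not at its ends. In CLT, the fold changes of cKO against Ctrl were 1.31 and 0.69 at *Dsc3* and *Dsc2*, 4.31 at *Dsc1*, 2.68, 1.27 and 4.01 at *Dsg1a*, *Dsg1b* and *Dsg4*, and 1.86 and -0.61 at *Dsg3* and *Dsg2*. The genes beside the cluster were added by position after the members' values were known. *Ttr*, next to *Dsg2*, was at 0.224 RPKM or less in every library. *B4galt6*, the next gene, was at 9.39 and 12.9 RPKM in Ctrl CLT, above 6.53 and 5.78 in cKO CLT, a log2 fold change of -0.75 ± 0.22 (adjusted p = 0.10, limma). *Trappc8* was at 10.2 and 13.3 RPKM in Ctrl CLT, against 12.9 and 11.7 in cKO CLT, with overlapping ranges. The 3 nearest genes of the table on the *Dsc3* side were at 0.325 RPKM or less in every library. They are far off, as the closest, *4930545E07Rik*, ends at position 17580990 and the cluster starts at 19960930. The high levels of *Dsc1* and *Dsg4* in cKO CLT thus had no counterpart in the genes measured here on either side.

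The members were also set against *Krt5*, the keratin of basal epithelial cells, whose own level was 268 to 317 RPKM in CLH, 633 and 436 in Ctrl CLT and, in cKO CLT, 936 and 1079. *Itga6* and *Itgb4*, also of the basal list, were instead lower in cKO CLT than in Ctrl CLT, so the ratios depend on the choice of *Krt5*. Per 100 RPKM of *Krt5*, *Dsc3* stood at 8.04 to 10.8 in CLH, 8.20 and 8.11 in Ctrl CLT and, in cKO CLT, 12.1 and 9.50. *Dsc2* stood at 2.33 to 3.12 in CLH, 2.45 and 3.27 in Ctrl CLT and, in cKO CLT, 2.73 and 2.19. On this scale the ranges of *Dsc2* overlapped between all groups, and those of *Dsc3* between CLH and cKO CLT. *Dsg2* was at 3.46 to 4.48 in CLH, 3.54 and 4.90 in Ctrl CLT and, in cKO CLT, 1.53 and 1.26. It was the only member tested that was lowest in cKO CLT, without overlap with any other group.

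*Dsg3* per 100 RPKM of *Krt5* was at 0.0944 to 0.353 in CLH, 1.13 and 1.89 in Ctrl CLT and, in cKO CLT, 3.32 and 2.79. *Dsg1a* was at 1.12 to 1.67 in CLH, 3.22 and 0.957 in Ctrl CLT and, in cKO CLT, 7.60 and 5.79. *Dsg1b* was at 0.282 to 0.345 in CLH, 0.351 and 0.225 in Ctrl CLT and, in cKO CLT, 0.544 and 0.469. All 3 were highest in cKO CLT. *Dsc1* reached 9.35 and 7.82 and *Dsg4* 6.02 and 5.28 in cKO CLT, against 2.81 and 1.85 in Ctrl CLT 1. The plot relative to *Krt5* therefore shows overlapping groups for *Dsc2*, and for *Dsc3* a level in cKO CLT that was above Ctrl CLT without overlap and overlapped CLH.

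**Figure D4:**
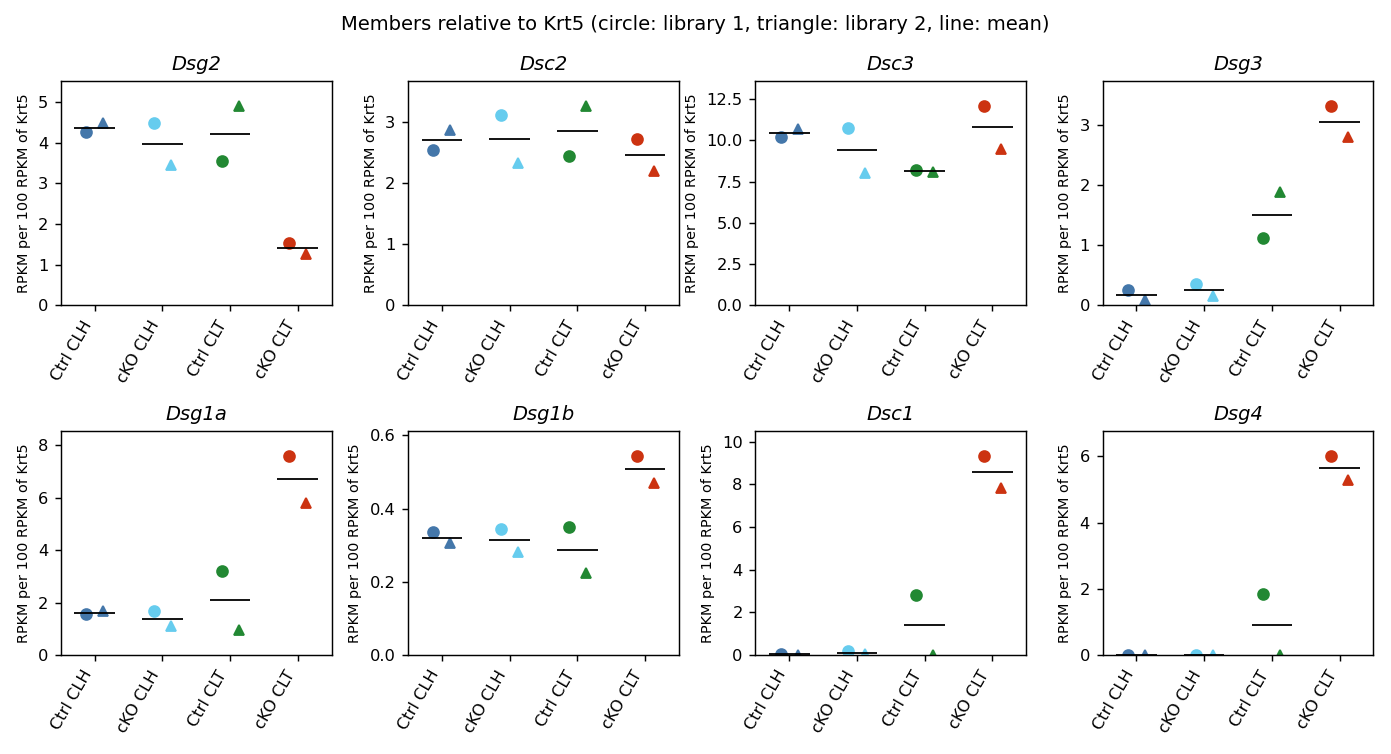
RPKM of each member tested per 100 RPKM of *Krt5* (vertical axis, linear, from 0) in the 4 groups, with a circle for library 1, a triangle for library 2 and a line at their mean. *Dsc2* lies between 2.19 and 3.27 in all libraries, while *Dsg2* is at 1.53 and 1.26 in cKO CLT and *Dsg1a*, *Dsc1*, *Dsg3* and *Dsg4* are highest there.

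The other genes of the desmosome were counted from a list of 5 plaque genes and 6 associated genes, all of which passed the filter. In CLT, the 5 plaque genes were higher in cKO without overlap, as were 37.2% of all genes. 0 of 5 passed the threshold with limma, with 4 of 5 at an unadjusted p under 0.05, against 36.2% of all genes, and 0 called by voom. *Dsp*, which encodes desmoplakin, was at 103 and 33.0 RPKM in Ctrl CLT, below 263 and 271 in cKO CLT, a log2 fold change of 2.17 ± 0.58 (adjusted p = 0.095). *Jup*, which encodes plakoglobin, was at 56.0 and 14.0 in Ctrl CLT, below 124 and 143 in cKO CLT (2.20 ± 0.69). In Ctrl CLT 2 it lay within its CLH range of 13.9 to 17.1 RPKM. The plakophilins differed by 1.79 ± 0.60 (*Pkp1*), 1.42 ± 0.30 (*Pkp2*) and 2.52 ± 0.98 (*Pkp3*) on the log2 scale. The median of the 5 was 2.17, beside -0.01 for all genes. As *Pkp2* passed the filter through CLT libraries only, this median and the counts beside it are no support for a direction of the list.

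Between the regions of cKO mice, all 5 plaque genes were called higher in CLT, as were 28.9% of all genes, from 2.07 ± 0.10 for *Pkp2* to 3.54 ± 0.10 for *Pkp3*. *Pkp2* was under 1 RPKM in every CLH library and passed the filter through CLT alone. Its calls here and in the interaction are therefore no support for a direction of the list. In the interaction *Pkp2* alone passed (1.45 ± 0.34, adjusted p = 0.037, limma). In CLH 0 of 5 passed in limma, with 2 at an unadjusted p under 0.05 (*Jup* and *Pkp3*), against 7.26% of all genes, and 0 called by voom. Summed over all 9 members, the cadherins came to 1.81 to 2.28 times the RPKM of *Dsp* in CLH, 1.44 and 2.56 times in Ctrl CLT and, in cKO CLT, 1.54 and 1.40 times. The ranges of this ratio overlapped between cKO CLT and Ctrl CLT.

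Of the 6 associated genes, 4 were higher and 2 lower in cKO CLT than in Ctrl CLT without overlap, against 37.2% and 35.1% of all genes. 0 passed with limma, with 4 at an unadjusted p under 0.05, against 36.2% of all genes, and 0 called by voom. *Cdsn*, which encodes corneodesmosin, the glycoprotein of the desmosomes of cornified cells, had the highest fold change. It was at 53.6 and 0.0843 RPKM in Ctrl CLT, below 175 and 197 in cKO CLT, and the log2 fold change was 4.60 ± 1.99 (adjusted p = 0.18). *Ppl* and *Evpl*, which encode periplakin and envoplakin, differed by 2.96 ± 1.04 and 1.98 ± 0.71, and *Perp*, a membrane protein of desmosomes, by 1.14 ± 0.37. *Pkp4*, a relative of the plakophilins, was at 26.8 and 48.8 RPKM in Ctrl CLT, above 16.3 and 15.6 in cKO CLT (-1.14 ± 0.32 on the log2 scale). In cKO mice *Cdsn*, *Ppl*, *Evpl* and *Perp* were called higher in CLT than in CLH and *Pkp4* lower (-1.44 ± 0.08), while *Kazn* did not pass (-0.04 ± 0.10). *Cdsn* had at most 0.697 RPKM in CLH and passed the filter through CLT alone, so its call and its place in the counts are no support for a direction. *Pkp4* thus resembled *Dsg2* in its lower level in cKO CLT than in Ctrl CLT.

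**Figure D5:**
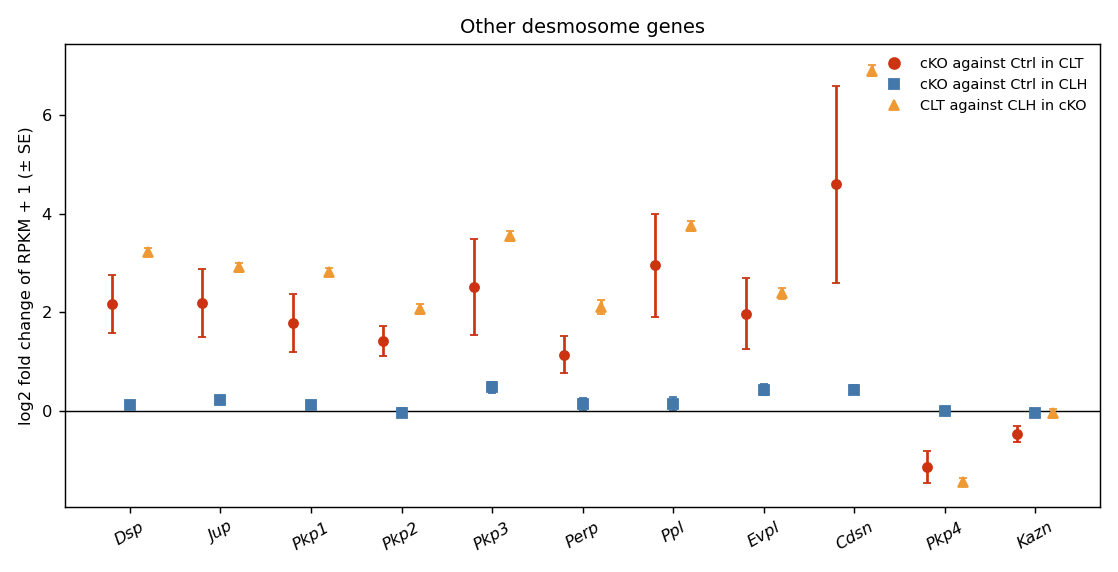
Fitted log2 fold change of RPKM + 1 (vertical axis, points, with bars for ± SE) of the 5 plaque genes and the 6 associated genes in 3 comparisons. The points for CLH lie near 0, those for cKO against Ctrl in CLT have wide bars, and *Cdsn* reaches 6.90 between the regions of cKO mice.

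Over the 8 libraries, log2 of RPKM + 1 of all members but *Dsg2* went together. Their pairwise Pearson r was 0.877 to 0.998, whereas *Dsg2* had an r of 0.186 to 0.491 with the others. These values describe 8 libraries that fall into 4 groups and may share reads between the *Dsg1* copies, and they carry no test. The 3 genes most like *Dsg2* in the whole table were *Ccng1* (r = 0.997), *Cmtm6* (r = 0.989) and *Atp6v1c1* (r = 0.983). For *Dsg4* they were *Kcne1*, *Oas1f* and *AU018091*, and for *Dsc1* they were *Krt82*, *Hsd17b2* and *2310050B05Rik*, each with an r above 0.99. *Dsg3* was most like *Cdcp1*, *Riok3* and *Cobll1*, *Dsc3* most like *Insig2*, *Cacng1* and *Akirin1*, and *Dsc2* most like *Tmem64*, *Ide* and *Daam1*. The nearest to *Dsg1a* were *Tfap2b*, *Itgb1bp2* and *Esrp1*, and to *Dsg1b* they were *Slc43a2*, *Ryr1* and *Ugt1a1*. No gene outside the family was among the 3 nearest of more than 1 member.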

How the data were processed

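RNA-seq libraries of CLH and CLT were used, with groups taken from the sample labels. The submitters' processing notes name FastQC 0.72, Trim Galore 0.4.3.1, STAR 2.6.0b-1, featureCounts 1.6.3, DESeq2 2.11.40.2 and mm10. The authors deposited RPKM values for 23358 genes with a gene length. Libraries came from the TruSeq v2 kit. The annotation, the strand setting and the total behind the RPKM are not given in the sources used here. RPKM times length was a whole multiple of 1 read (tolerance 0.02 reads) for 100% of values checked up to 500 reads, which gave 26591613 to 34420181 reads per library, 82.2% to 85.6% of them on genes. A count of 0 allows 3 reads per library, which covers counting error only. 26 gene names were on more than 1 row, 69 rows in all, and were not used by name.

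As RPKM are not counts, log2(RPKM + 1) was tested with limma 3.58.1 (trended eBayes, two-sided, R 4.3.3) on the 14148 genes with at least 1 RPKM in at least 2 libraries, with Benjamini-Hochberg adjustment over all of them and a threshold of 0.05. Each comparison used its own 4 libraries, and the interaction all 8. The script was tested on simulated data. Alternatives were a pseudocount of 0.1, no filter, a filter on the mean, median-of-ratios scaling, all libraries in 1 fit, a replicate block, voom on recovered reads and leaving out each library. The methods speak of biological duplicates, but no label ties a library to animals, so p-values measure only the spread between these samples. CLH and CLT libraries may come from the same animals, and the main fits between the regions treated them as independent. Open reading frames and 50-base windows came from GENCODE M21 transcripts (mm10). All 9 members and 5 plaque genes were named, associated genes if called in any comparison or with the largest or smallest fold, and the 3 genes nearest each member by r. The members and lists were chosen with earlier results of these data known. Lists of leukocyte, erythroid and endothelial markers were computed too. They summed to 89.0 to 161 (94.2 and 89.0 in cKO CLT), 4.42 to 7.29 and 37.4 to 52.1 RPKM per library.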

Additional observations from a re-analysis of the deposited data

Results flagged for a closer look

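For 5 members the cKO effect differed between CLT and CLH in the interaction test of limma over all 8 libraries. The difference of the log2 fold changes, CLT minus CLH, was 1.66 for *Dsg3*, 1.41 for *Dsc3*, 1.25 for *Dsg1b* and 0.64 for *Dsc2*. It was -0.53 for *Dsg2*, which was the only one of these with a lower level in cKO CLT than in Ctrl CLT. Of the 5, *Dsg3* and *Dsg1b* passed the filter through CLT libraries only, so the count is no support for a direction of the family. The sign of each of the 5 differences held whichever library was left out. Whether a member passed depended on that library, in fits that leave a group with a single library. Among the alternatives that kept all libraries, only *Dsc3* passed in each.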

How the results depend on the processing

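The number of members past the threshold was compared across alternatives, and where it moved the cause was not tested. The share of all genes called is given beside each count. For cKO against Ctrl in CLT, 1 member passed (1.75% of all genes), against 0 with no filter (0.0152%), 8 with all libraries in 1 fit (43.7%) and 0 with voom (0%). With a replicate block it was 5 (12.3%). The labels do not say that equal numbers share a litter, and the deviations of equal numbers correlated at -0.19 over genes between Ctrl CLT and cKO CLT. The correlation was 0.31 between cKO CLH and cKO CLT, 0.20 between Ctrl CLH and Ctrl CLT, and 0.07 between Ctrl CLH and cKO CLH. With the numbers crossed, chosen after seeing the data, 0 members passed (0.0636%). For the difference between the regions, 5 passed (17.6%), against 2 with a pseudocount of 0.1 (16.5%), 3 with no filter (11.7%) and 2 with median-of-ratios scaling (17.9%). The replicate block gave 2 (10.2%) and voom 2 (15.2%). For CLT against CLH in Ctrl, 0 passed (0.00707%), against 3 with all libraries in 1 fit (5.92%). In each of these comparisons the calls also moved when single libraries were left out, which leaves a group with 1. In CLH 0 passed under every alternative that kept all libraries (0%), and between the regions of cKO mice 7 to 9 passed (54.1% to 80.9%). Directions turned only on leaving out a library. In CLH this held for *Dsc2* (-0.028 to 0.131), *Dsg1b* (-0.016 to 0.043) and *Dsg3* (-0.018 to 0.429) on the log2 scale, and between the regions of Ctrl mice for *Dsg1a* (-0.084 to 1.96) and *Dsc1* (-0.131 to 4.07). Median-of-ratios scaling moved the median of all genes from -0.13 to 0.01 in Ctrl and from -0.18 to 0.02 in cKO for CLT against CLH. No member changed direction under it. Depth limits *Dsg1c* in all libraries. It also limits *Dsc1* and *Dsg4* in CLH and in Ctrl CLT 2, where *Dsc1* had 2 reads and *Dsg4* 1.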
